A study of Homo sapiens with 6 samples.

Results

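Wnt ligands, receptors and regulators were read in RNA-seq counts of paclitaxel (PTX)-resistant MDA-MB-231 BCSC with and without knockdown of the lncRNA LINC00115. The genes were chosen by symbol: all listed Wnt, Fzd, Sfrp, Dkk, Lgr4 to Lgr6 and Rspo genes, together with 14 named regulators. This gave 46 of the 22989 genes in the count table. Of these 46 genes, 31 had enough counts to be tested, 12 had at most 3 counts in every library, and 3 (Wnt3, Sfrp4 and Rspo3) lay between. The symbols Wnt3a, Dkk1 and Lgr5 would also match, but these genes had no row in the count table.

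The MDA-MB-231 line was derived from a triple-negative breast cancer, and BCSC are its breast cancer stem-like cells, sorted for high aldehyde dehydrogenase activity (ALDH+). Both groups were PTX-resistant BCSC without any other treatment in the labels. The 3 libraries labelled LINC00115 KD come from cells with a short hairpin RNA against LINC00115, and the 3 libraries labelled WT are their control. Whether WT cells carried a control shRNA is not given for this experiment. The study names hairpin sh115-2 for its RNA-seq, while the labels number the KD libraries sh115-1 to sh115-3. The labels do not say whether replicates were separate cultures, so the p-values measure only the spread between these libraries. The libraries held 36979221 to 38799331 counts each.

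The symbols were written in mouse style, and 4648 genes had Gm names and 1135 Rik names, which are given to mouse genes, although the labels state Homo sapiens. LINC00115 had 0 rows, so the knockdown could not be checked and each direction rests on the labels. Of genes that mark the labelled cells, Vim, Cd44, Axl and Cav1 were abundant in both groups, whereas Aldh1a1 stood at 0.327 CPM in WT and 1.16 CPM in KD (means of 3 libraries) and Aldh1a3 had at most 4 counts. Markers of other tissues moved with the groups. For all 12 lung epithelium genes the lowest KD library lay above the highest WT library (summed 66.9 to 79.8 against 0.159 to 0.503 CPM), and 8 of them had 0 counts in all WT libraries. Of 12 kidney tubule genes, 9 were higher and 1 was lower in the same sense (41.9 to 45.9 against 16.8 to 19.6 CPM). The share of all genes with groups separated in this way is not given here. Of the lung and kidney genes tested, 100% and 66.7% were higher by more than 2-fold at an edgeR adjusted p under 0.05. Of all genes tested, 10.2% were. The lung genes tested, and the kidney genes higher in this way, had enough counts for the test only in KD. A gene tested through its KD counts can hardly come out lower, so these shares cannot be weighed against that of all genes. For 10 leukocyte genes the sum was 99.7 to 111 against 34.9 to 35.8 CPM, mostly S100a8, while Cd3e had 0 counts throughout. For 10 fibroblast genes the sum was 76.9 to 80.3 against 174 to 193 CPM, mostly Pdgfra. Pdgfra and Dcn were lower (2.38-fold and 2.42-fold), while Acta2 and Fap were higher (5.59-fold and 2.71-fold, Fap with overlapping groups). Postn had 0 counts in WT and 11, 10 and 9 in KD. For the 9 of 10 endothelial genes with a row here the sum was 57.6 to 60.3 against 1.22 to 1.86 CPM, nearly all Cdh5, and Emcn had at most 1 count. Tie1 went the other way, from 24, 18 and 23 counts in WT to 3, 13 and 5 in KD, and Pecam1 and Vwf overlapped. For 12 epithelial genes the sum was 990 to 1040 against 616 to 628 CPM, mostly Krt8, and Epcam had at most 5 counts. Krt14 overlapped between the groups, at 7, 30 and 192 counts in WT and 31, 28 and 19 in KD. Its lower mean in KD rested on WT replicate 3. The part of these differences in the Wnt results was not tested. In bulk RNA, fewer cells of a type and less RNA per cell cannot be told apart.

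Wnt proteins are secreted lipid-modified ligands that bind frizzled receptors. With LRP5 or LRP6 as co-receptor they stop the destruction complex of APC and AXIN from marking β-catenin for degradation, and β-catenin then acts with TCF/LEF factors on target genes. Other Wnt proteins signal through frizzled receptors without β-catenin, to cell polarity and movement. In breast tissue, Wnt signalling is known for its role in mammary stem cells.

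Here, several Wnt ligands and frizzled receptors were higher in KD, while both LRP co-receptors and β-catenin mRNA were lower. Wnt7b, Wnt1, Wnt10a, Wnt6, Fzd6 and Fzd9 were higher by more than 2-fold, and Fzd2, Fzd3 and Wnt2b were lower by more than 2-fold, all at an edgeR adjusted p under 0.05 (the thresholds of the study's methods, referred to below as called). Thus 6 of the 31 tested genes were called higher (19.4%), where 10.2% of all 13497 genes tested were, and 3 were called lower (9.68%), where 9.98% of all genes were. Without the fold threshold, 16 were higher (51.6%, against 36.7% of all genes) and 10 were lower (32.3%, against 36.7% of all genes), and 5 did not pass. The median log2 fold change was 0.31 over these 31 genes and −0.0061 over all genes tested. A gene was tested only if at least 3 libraries had enough counts, so these shares describe the tested genes and not the 46. Wnt6 and Fzd9 passed through their KD counts and Wnt2b through its WT counts. With at least 10 counts required in every sample 4 genes were called higher and 2 lower.

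**Figure D1:**
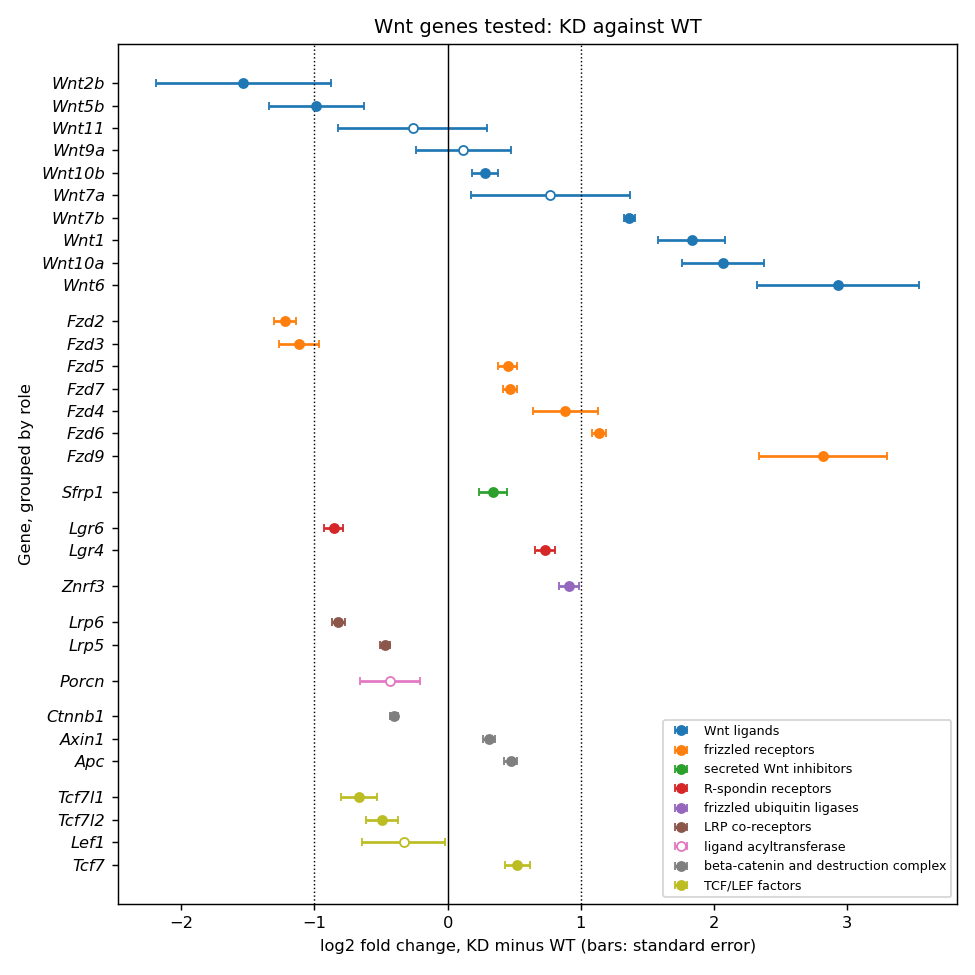
Log2 fold change (KD minus WT, x axis) of the 31 Wnt genes tested, grouped and coloured by role, with standard errors as bars. Filled points passed an adjusted p of 0.05 in edgeR's quasi-likelihood test, open points did not, and dotted lines mark a fold change of 2. Ligands and frizzled receptors span −1.53 to 2.93, while the genes of all other roles lie within a fold change of 2.

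Among the 15 Wnt ligands listed, 10 were tested, 4 of them were called higher and 1 lower (10.2% and 9.98% of all genes were). Wnt7b, a ligand with roles in lung and kidney epithelium, rose in KD from 81.3, 84.3 and 84.0 to 219, 202 and 221 CPM (CPM, each count relative to its TMM-scaled library total, for libraries 1, 2 and 3 in order). All KD libraries lay far above all WT libraries, and the fold change was 2.57 (log2 1.36, standard error 0.04, edgeR adjusted p = 3.57e-25). The lung and kidney markers above were higher in the same libraries, and their part in Wnt7b was not tested. Wnt7b kept a log2 fold change of 1.35 to 1.41 with any 1 library left out.

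Wnt1 and Wnt10a are ligands of the β-catenin branch, and both rose from a low level. Wnt1 went from 1.27, 1.30 and 0.873 to 4.42, 3.81 and 4.05 CPM, a fold change of 3.56 (edgeR adjusted p = 7.62e-08). Wnt10a went from 0.637, 1.17 and 0.556 to 3.44, 2.83 and 3.66 CPM, a log2 fold change of 2.07 (standard error 0.31, edgeR adjusted p = 3.13e-07). In neither gene did the groups overlap. Wnt6 had 6, 5 and 1 counts in WT and 25, 33 and 36 counts in KD, a fitted fold change of 7.63 (log2 2.93, standard error 0.61, edgeR adjusted p = 6.64e-05). Its 1 count in WT replicate 3 is under the limit of 3 counts that a count of 0 allows, so the size of this fold is poorly known.

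Wnt10b, the close paralog of Wnt10a, rose little. It stood at 13.2, 12.0 and 12.6 CPM in WT and at 14.2, 15.6 and 16.2 CPM in KD, a fold change of 1.22 (edgeR adjusted p = 0.0100). The groups were separate, but by less than 1 CPM between the nearest libraries.

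Fewer ligands fell. Wnt5b, a ligand of the β-catenin-independent branch, fell from 2.26, 2.52 and 1.85 to 1.34, 0.409 and 1.58 CPM, a log2 fold change of −0.99 (standard error 0.36, edgeR adjusted p = 0.0144). KD replicate 2 was far below the other KD libraries. Without it the log2 fold change was −0.58 (edgeR adjusted p = 0.103), and without WT replicate 2 the adjusted p was 0.0541, in a range of 0.00434 to 0.103 over all alternatives. Wnt2b, a β-catenin branch ligand, had 14, 11 and 19 counts in WT and 8, 4 and 3 counts in KD. Its log2 fold change was −1.53 (standard error 0.65, edgeR adjusted p = 0.0353). This call was lost in 4 of the 6 fits that left out 1 library, namely WT replicate 1 or 3 or KD replicate 2 or 3, with adjusted p-values up to 0.149, and also with the replicate block (adjusted p = 0.0603), with DESeq2 (adjusted p = 0.0960) and with no low-count filter (adjusted p = 0.113). Over all alternatives its adjusted p ranged from 0.0293 to 0.149.

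Wnt3, a β-catenin branch ligand, had 8, 15 and 33 counts in WT and 0 counts in all 3 KD libraries. It was at least 6.22-fold lower in KD, taking 3 counts per library as the limit for KD, and at least 3.84-fold lower without WT replicate 3. It did not pass the low-count filter and was not tested in the edgeR fit used here. With no filter its edgeR adjusted p was 6.69e-07, DESeq2 gave 1.32e-05, and the 4 edgeR fits without 1 library in which it passed the filter gave up to 0.000278. In those 4 fits Wnt3 passed the filter through its WT counts alone, and it did not pass without WT replicate 2 or 3. Its highest library, WT replicate 3, also stood apart in basal keratins, with 92 counts of Krt5 against 0 in the other 5 libraries and 192 counts of Krt14 against 7 to 31.

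The remaining ligands gave no difference past the test or too few counts. Wnt9a lay at 0.982 to 1.48 CPM in WT and 1.03 to 1.87 CPM in KD (edgeR adjusted p = 0.772), Wnt7a at 0.0796 to 0.423 and 0.300 to 0.569 CPM (adjusted p = 0.246 in the same edgeR fit), and Wnt11 at 0.371 to 0.451 and 0.181 to 0.606 CPM (edgeR adjusted p = 0.682). In all 3 the groups overlapped. Wnt4, Wnt5a, Wnt8a and Wnt16 had at most 3 counts in any library, which at this depth is a level up to about 0.08 CPM and cannot show a difference. Porcn, the acyltransferase that adds the lipid to Wnt proteins, had 3.72, 2.89 and 4.15 CPM in WT and 2.22, 2.51 and 3.24 CPM in KD, with overlap and no call (log2 fold change −0.43, edgeR adjusted p = 0.0846).

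**Figure D2:**
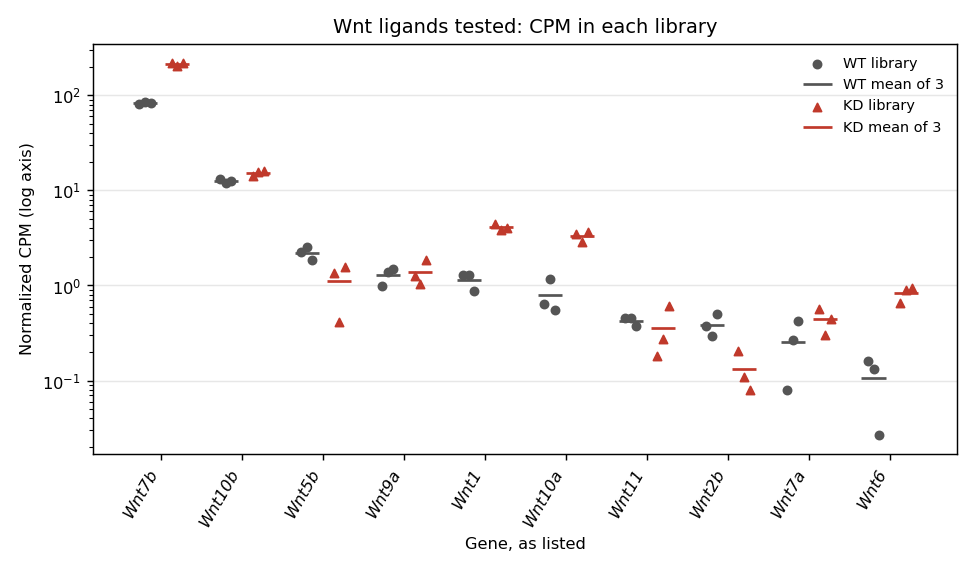
Normalized CPM (log axis) of the 10 tested Wnt ligands in each of the 3 WT (circles) and 3 KD libraries (triangles), with the group mean as a line. Genes are placed by their WT mean, which does not rank their expression because gene length is not taken into account. Wnt7b, Wnt1, Wnt10a and Wnt6 are higher in all KD libraries, and KD replicate 2 (the middle triangle) is low for Wnt5b.

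Of the 9 frizzled receptors, 7 were tested and all 7 passed the adjusted p, 5 being higher and 2 lower in KD. Of all genes tested, 73.4% passed it, 36.7% in each direction. Fzd6 and Fzd9 were called higher and Fzd2 and Fzd3 lower. Fzd6, which acts in cell polarity and can restrain the β-catenin branch, rose from 44.1, 51.1 and 49.9 to 108, 101 and 110 CPM, a fold change of 2.20 (standard error of log2 0.05, edgeR adjusted p = 1.06e-19). Fzd9 rose from 14, 3 and 9 to 63, 67 and 56 counts, a fold change of 7.06 (edgeR adjusted p = 3.08e-06). The WT counts of Fzd9 were few, and with 1 library left out its log2 fold change ranged from 2.42 to 3.34.

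Fzd7, a β-catenin branch receptor often studied in triple-negative breast cancer, rose from 58.0, 65.5 and 58.9 to 83.4, 80.8 and 87.8 CPM, a fold change of 1.38 (edgeR adjusted p = 8.41e-10). Fzd5 rose from 27.8, 24.7 and 23.0 to 32.5, 34.6 and 36.0 CPM, a fold change of 1.37 (edgeR adjusted p = 1.69e-06). For Fzd4, which also binds the non-Wnt ligand norrin, 1.54, 2.04 and 1.88 CPM in WT became 3.49, 3.68 and 2.92 CPM in KD, a fold change of 1.85 (edgeR adjusted p = 0.00159). These 3 receptors had separate groups and changed by less than 2-fold.

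Fzd2 and Fzd3 moved the other way. Fzd2, a receptor for Wnt5a among others, fell from 32.5, 28.6 and 30.1 to 13.9, 13.0 and 12.2 CPM, 2.33-fold lower (edgeR adjusted p = 3.16e-15). Fzd3, known from axon guidance and planar polarity, fell from 10.8, 9.22 and 8.73 to 5.07, 4.49 and 3.69 CPM, 2.17-fold lower (edgeR adjusted p = 3.70e-08). Without KD replicate 3 its log2 fold change was −0.99, just under the fold threshold. Fzd1 and Fzd8 had at most 3 counts in any library.

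The LRP co-receptors, which pair with frizzled receptors in the β-catenin branch, both fell. Lrp6 fell from 121, 126 and 110 to 67.3, 65.8 and 69.1 CPM, 1.77-fold lower (log2 fold change −0.82, standard error 0.05, edgeR adjusted p = 6.78e-17). Lrp5 fell from 222, 202 and 203 to 148, 148 and 156 CPM, 1.39-fold lower (edgeR adjusted p = 1.48e-12). All KD libraries were below all WT libraries for both genes.

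Receptors for R-spondins, the secreted proteins that strengthen Wnt signalling, split. Lgr4 rose from 18.2, 19.3 and 18.1 to 28.9, 31.2 and 32.0 CPM, a fold change of 1.66 (edgeR adjusted p = 1.40e-10). Lgr6 fell from 48.5, 38.9 and 42.3 to 24.7, 23.9 and 23.1 CPM, 1.81-fold lower (edgeR adjusted p = 1.29e-12). Their ligands were barely detected: Rspo3 had 0 counts in WT and 0, 3 and 4 counts in KD, and Rspo4 had 1 count in all 6 libraries together.

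R-spondins act by removing the ubiquitin ligases Znrf3 and Rnf43, which take frizzled receptors off the cell surface. Znrf3 rose from 639, 757 and 766 to 1413, 1290 and 1367 counts, a fold change of 1.88 (log2 0.91, standard error 0.08, edgeR adjusted p = 5.83e-13), while Rnf43 had 1 count in WT replicate 2 and 0 elsewhere. Znrf3 was thus the only member of this pair with measurable counts, and its groups were well apart.

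**Figure D3:**
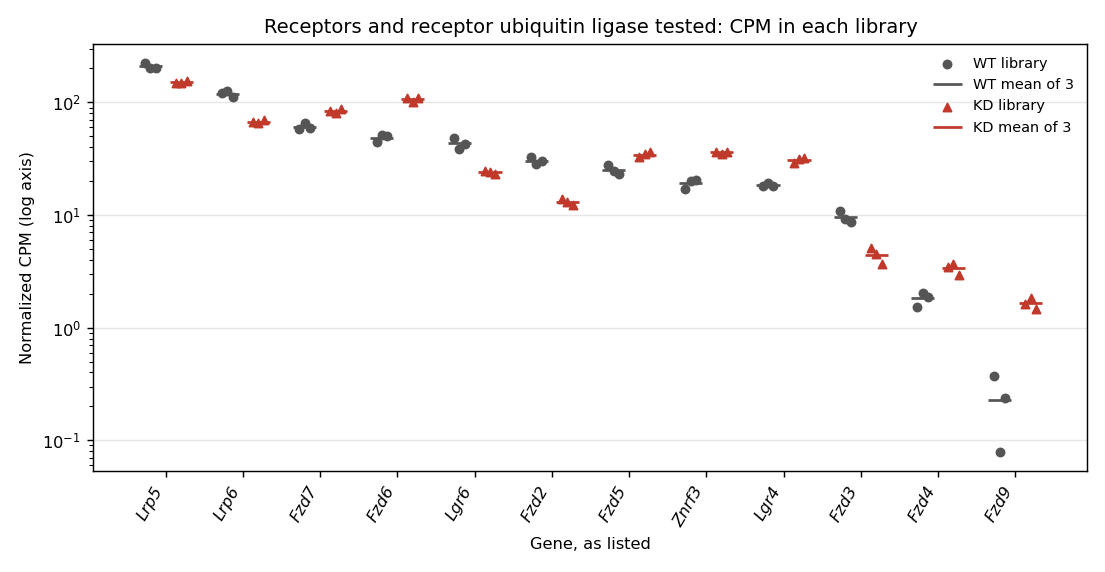
Normalized CPM (log axis) of the 12 tested receptors, co-receptors and receptor ubiquitin ligase in each WT (circles) and KD library (triangles), with group means as lines. Genes are placed by their WT mean, without regard to gene length. Fzd2, Fzd3, Lgr6, Lrp5 and Lrp6 are lower in every KD library, and the other 7 genes are higher.

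Of the secreted inhibitors, only Sfrp1, which binds Wnt proteins outside the cell, was tested. It rose from 9.08, 10.5 and 10.3 to 12.4, 12.1 and 13.3 CPM, a fold change of 1.27 (log2 0.34, standard error 0.11, edgeR adjusted p = 0.00508). Sfrp4 had 0, 1 and 9 counts in WT and 0 counts in KD, so it rested on WT replicate 3, the library with the keratin counts. Sfrp2, Dkk3 and Wif1 had at most 2 counts in any library.

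Inside the cell, β-catenin mRNA fell while 2 destruction complex scaffolds rose, all by less than 2-fold. Ctnnb1, which encodes β-catenin, fell from 1556, 1658 and 1598 to 1230, 1179 and 1238 CPM, 1.32-fold lower (log2 fold change −0.40, standard error 0.03, edgeR adjusted p = 5.35e-14). Apc rose from 86.7, 93.2 and 79.2 to 122, 121 and 117 CPM, a fold change of 1.39 (edgeR adjusted p = 9.37e-11). Axin1 rose from 81.0, 88.5 and 82.9 to 102, 105 and 106 CPM, a fold change of 1.24 (edgeR adjusted p = 2.08e-07). Other genes of this machinery, from the intracellular transducers below and named after their values were seen, went both ways. Apc2, Amer1, Btrc and Gsk3a fell (log2 fold changes −0.75, −0.78, −0.94 and −0.31, all at an edgeR adjusted p under 0.05). Gsk3b and Fbxw11 rose (0.30 and 0.13, also past it), and Csnk1a1 did not pass (0.02). These counts measure mRNA and not β-catenin protein, whose stability the pathway controls.

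The TCF/LEF factors, the DNA-binding partners of β-catenin, also split. Tcf7 rose from 13.1, 15.4 and 18.4 to 23.2, 21.9 and 22.3 CPM, a fold change of 1.44 (edgeR adjusted p = 9.65e-06). Tcf7l1, mainly a repressor of target genes, fell from 9.16, 9.40 and 8.42 to 5.74, 5.75 and 5.53 CPM, 1.59-fold lower (edgeR adjusted p = 4.29e-05). Tcf7l2 fell from 10.6, 10.7 and 10.9 to 7.08, 8.44 and 7.37 CPM, 1.41-fold lower (edgeR adjusted p = 0.000438). For Lef1 the groups overlapped, at 1.57 to 2.01 CPM in WT and 1.33 to 1.58 CPM in KD (log2 fold change −0.33, edgeR adjusted p = 0.342).

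Axin2, a feedback inhibitor widely used as a readout of β-catenin activity, had 2, 1 and 0 counts in WT and 0 counts in KD. A difference in Axin2 was therefore not detectable at this depth. Nkd1, another feedback inhibitor induced by Wnt signals, had 0 counts in WT and 3, 4 and 4 counts in KD, and was named after its values were seen. It was not tested, and these counts are too close to the 3 that a count of 0 allows to show a difference. Notum, a secreted enzyme that removes the lipid from Wnt proteins and is itself a known target gene, was by contrast well counted. It rose from 277, 272 and 315 to 1783, 1566 and 1664 counts, a fold change of 5.79 (log2 2.53, standard error 0.08, edgeR adjusted p = 2.12e-24).

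Notum belongs to a list of 27 other extracellular and membrane Wnt genes, of which 16 were tested, 3 were called higher (18.8%) and 3 lower (18.8%), beside 10.2% and 9.98% of all genes. Without the fold threshold 6 were higher (37.5%) and 6 lower (37.5%), beside 36.7% of all genes in each direction. The median log2 fold change was 0.06. Besides Notum, Adgra2, a co-receptor for Wnt7 ligands, rose 3.04-fold (104, 106 and 148 counts in WT, 382, 373 and 336 in KD, edgeR adjusted p = 5.86e-11). The cadherin Celsr2 rose on few counts (10, 7 and 1 in WT, 22, 17 and 24 in KD, edgeR adjusted p = 0.0110), a call lost without WT replicate 3 (adjusted p = 0.0962, in a range of 0.00999 to 0.0962 over all alternatives). Celsr2 passed the low-count filter through its KD counts. Tspan12, a partner of Fzd4 in norrin signalling, fell from 96, 115 and 82 to 12, 20 and 3 counts (log2 fold change −3.05, edgeR adjusted p = 1.19e-07). Without KD replicate 2 the log2 fold change was −3.70. Ror1, a receptor for Wnt5a, and Vangl2, a planar polarity protein, fell 3.17-fold and 2.72-fold (edgeR adjusted p = 0.00126 and 3.36e-08). Wls, which carries Wnt proteins to the cell surface, had 4844, 4960 and 5158 counts in WT and 3765, 3582 and 3512 in KD (log2 fold change −0.46, edgeR adjusted p = 7.12e-12). It too was named after its values were seen.

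Among 41 intracellular transducers, 40 had a row here and 37 were tested. Of these, 2 were called higher (5.41%) and 2 lower (5.41%), beside 10.2% and 9.98% of all genes. Their median log2 fold change was −0.08. Without the fold threshold 10 were higher (27.0%) and 17 lower (45.9%), beside 36.7% of all genes in each direction. The planar polarity genes Prickle1 and Prickle2 rose, Prickle1 from 188, 174 and 128 to 651, 553 and 539 counts (3.55-fold, edgeR adjusted p = 1.76e-14). Prickle2 had 4, 0 and 5 counts in WT and 47, 21 and 30 in KD (edgeR adjusted p = 3.24e-05), and passed the low-count filter through its KD counts. Dact2, a binding partner of the Dishevelled proteins, and Tle2, a corepressor of TCF/LEF factors, fell 2.20-fold and 2.76-fold (edgeR adjusted p = 6.54e-12 and 1.52e-08).

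The other target genes went both ways. Of 32, 20 were tested, 2 were called higher (10%) and 3 lower (15%), beside 10.2% and 9.98% of all genes. Without the fold threshold 9 were higher (45%) and 7 lower (35%), beside 36.7% of all genes in each direction, and the median log2 fold change was 0.14. Of the 12 others, 5 had no row here and 7 had too few counts. Many of these genes also answer to other pathways, so the list is not specific to Wnt signals. The Notch ligand Jag1 rose from 1460, 1432 and 1438 to 4225, 4154 and 4461 counts (2.96-fold, edgeR adjusted p = 9.01e-25), and the adhesion molecule Nrcam from 4, 9 and 13 to 79, 52 and 60 counts (edgeR adjusted p = 1.76e-06). Nrcam passed the low-count filter through its KD counts. Ccn5, a matricellular protein, fell from 762, 770 and 810 to 89, 46 and 80 counts (10.9-fold lower, edgeR adjusted p = 3.35e-21). The transcriptional inhibitor Id2 fell 5.77-fold and the ephrin receptor Ephb3 4.74-fold (edgeR adjusted p = 6.71e-21 and 4.43e-13). Of the target genes past the adjusted p but under the fold threshold, Myc, a growth regulator, rose most (log2 fold change 0.92, edgeR adjusted p = 7.03e-22) and Sox9, a transcription factor of stem and progenitor cells, fell most (log2 fold change −0.85, edgeR adjusted p = 5.53e-19). Both were named after their values were seen.

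**Figure D4:**
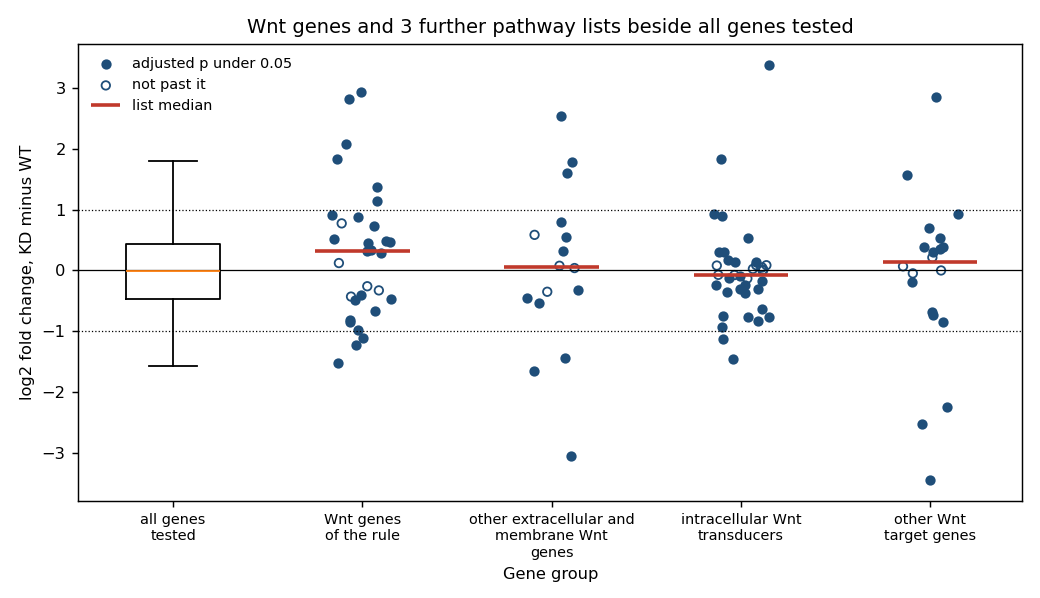
Log2 fold change (KD minus WT, y axis) of the tested Wnt genes and of the tested genes in 3 further pathway lists, with the list median in red, filled points at an adjusted p under 0.05 and dotted lines at a fold change of 2. The box at the left gives the middle 50% of all 13497 genes tested and its whiskers the 5th and 95th percentiles (−1.57 and 1.79). The medians are 0.31, 0.06, −0.08 and 0.14, and each list holds genes beyond both dotted lines.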

How the data were processed

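RNA-seq was performed on 3 LINC00115 KD and 3 WT libraries. The authors trimmed adapters, aligned reads with HISAT2 and deposited whole-number counts per gene without normalization. The methods name hg19, the submitters' processing notes hg38 and featureCounts. The library kits named by the labels and by the methods differ. Annotation and strand setting are not given in the sources used here, so reads of paralogs or overlapping genes may be split in unknown ways. Columns were matched to samples by description, and no mouse genome was used here, so no positions or sequences are given.

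The whole table was fitted with edgeR 4.0.16 (R 4.3.3): filterByExpr (minimum count 10, minimum total 15), TMM scaling and the quasi-likelihood test on group, with Benjamini-Hochberg adjustment over 13497 genes. Genes were called at an adjusted p under 0.05 and a fold change over 2. Standard errors were derived from the fold change and its F statistic. The steps were checked on simulated counts. Normalized CPM use TMM-scaled totals, and a count of 0 was read as up to 3 counts (counting error only). The genes, 3 pathway lists and 7 marker lists were chosen with earlier results of these data known. Every gene of the symbol rule is accounted for, and of the pathway lists called genes are named. Alternatives were other scalings and filters, each library left out, a replicate block and DESeq2 1.42.0.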

Additional observations from a re-analysis of the deposited data

How the results depend on the processing

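The Wnt genes called higher numbered 6 in every alternative except with at least 10 counts required in every sample (4), and those called lower numbered 2 to 4, except without KD replicate 1 (5). With each library left out the range was 3 to 5 lower, but the genes counted differed between these fits. Wnt2b was lost in several of them, and Fzd3 fell under the fold threshold without KD replicate 3. Wnt3, not tested in the edgeR fit used here, was tested in some. Requiring at least 10 counts in every sample also moved the called counts of the pathway lists. They became 1 higher transducer, 1 higher target gene and 1 lower extracellular or membrane gene. With no filter 4 target genes were called higher. These alternatives test other sets of genes. With 1 library left out, the 3 extracellular or membrane genes called lower stayed at 3, and target genes called higher at 2, while higher transducers ranged from 2 to 3. Wnt11 and Wnt9a, which did not pass the test, changed sign in 1 and 2 of the 6 fits that left out a library, with log2 fold changes from −0.89 to 0.060 for Wnt11 and from −0.15 to 0.30 for Wnt9a. Wnt5b passed a 2-fold change with library size and upper quartile scaling (−1.005 and −1.03). Same-numbered KD and WT libraries did not deviate together (correlations 0.04, −0.01 and −0.02). With the replicate block 6 Wnt genes were called higher and 3 lower, with Wnt5b added (−1.09) and Wnt2b lost.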

Other observations

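WT replicate 3 stood apart from the other control libraries in a few genes only weakly counted elsewhere. It held 92 counts of Krt5 (0 in the other 5 libraries), 192 of Krt14 (7 and 30 in the other WT libraries), 33 of Wnt3 (8 and 15) and 9 of Sfrp4 (0 and 1). These genes were picked after their values were seen, and no explanation was tested. Without this library, 6 Wnt genes were called higher and 3 lower, and Wnt2b was not among those lower.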
